A study of Mus musculus with 9 samples.

Results

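The 8 genes described here encode the H3K4 methyltransferases of the COMPASS family (Kmt2a, Kmt2b, Kmt2c, Kmt2d, Setd1a and Setd1b) and the H3K27 demethylases Kdm6a and Kdm6b. They were taken by name from the 48440 genes of the count tables, and all 8 were among the 20838 genes that were tested. Polyadenylated RNA was sequenced from J1 mouse embryonic stem cells, grown with LIF, serum and the 2i inhibitors, in which the Polycomb repressive complex 2 (PRC2) subunit Suz12 carries an auxin-inducible degron (Suz12-AID). All 3 groups carry this allele: Mock, Auxin (50 µM auxin for 96 h) and Reintroduction (50 µM auxin for 96 h, then washed out for 4.5 h), each with 3 biological replicates. Whether the line is a single clone, and what the Mock cells received in place of auxin, are not given in the sources used here. There is no group of untagged cells with auxin, so an effect of auxin itself and the loss of Suz12 cannot be told apart. Nor is there a washed group without the degron, so the washout itself and the return of Suz12 cannot be told apart. The comparisons ask how the transcripts of enzymes that work opposite PRC2 stood under auxin, which depletes Suz12, and 4.5 h after the washout.

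PRC2 methylates lysine 27 of histone H3 at silent developmental genes, and the proteins encoded here act on the other side of that balance. COMPASS complexes methylate lysine 4 of the same histone: SETD1A and SETD1B complexes carry out most trimethylation at active promoters, KMT2A (MLL1) and KMT2B (MLL2) act at developmental and CpG-rich promoters, and KMT2C (MLL3) and KMT2D (MLL4) mainly monomethylate enhancers. KDM6A (UTX) and KDM6B (JMJD3) remove methyl groups from lysine 27, and KDM6A is itself a subunit of the KMT2C and KMT2D complexes. In stem cells, many silent developmental promoters carry both marks, a state called bivalent.

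The catalytic SET domain lies at the C-terminal end of each methyltransferase, and the last 96 coding bases before the stop codon are shown to set the 6 enzymes side by side. Capitals mark the 28 positions that hold the same base in all 6 (GENCODE M21 transcripts, 5′ to 3′ on the coding strand, longest coding sequence of each gene). Positions were counted back from the stop codon without gaps. Codons gained or lost within the stretch were not allowed for, so capitals do not mark aligned codons throughout.
Kmt2a: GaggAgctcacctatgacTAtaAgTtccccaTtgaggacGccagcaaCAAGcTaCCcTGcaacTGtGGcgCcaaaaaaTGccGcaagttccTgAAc
Kmt2b: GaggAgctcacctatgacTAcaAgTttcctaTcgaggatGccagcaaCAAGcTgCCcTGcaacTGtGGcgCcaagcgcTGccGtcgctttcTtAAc
Kmt2c: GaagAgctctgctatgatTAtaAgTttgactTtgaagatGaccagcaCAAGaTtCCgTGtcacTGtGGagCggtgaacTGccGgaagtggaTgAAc
Kmt2d: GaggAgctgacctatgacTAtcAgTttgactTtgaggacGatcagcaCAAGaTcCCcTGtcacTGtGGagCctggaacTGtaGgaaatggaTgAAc
Setd1a: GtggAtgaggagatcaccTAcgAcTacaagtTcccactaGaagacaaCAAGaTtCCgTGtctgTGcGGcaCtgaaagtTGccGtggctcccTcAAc
Setd1b: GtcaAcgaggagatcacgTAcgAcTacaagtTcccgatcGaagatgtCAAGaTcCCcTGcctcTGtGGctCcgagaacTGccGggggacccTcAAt

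On mm10 these ends lie in coding exons at chr9:44807905-44808000 (Kmt2a, minus strand), chr7:30569164-30569259 (Kmt2b, minus), chr7:127799381-127799476 (Setd1a, plus) and chr5:123165908-123166003 (Setd1b, plus). Those of Kmt2c (chr5:25273669-25275633, minus) and Kmt2d (chr15:98834503-98834721, minus) each run over 2 exons. Over the last 300 coding bases, compared position by position without gaps, Kmt2a and Kmt2b were 81.0% identical, Kmt2c and Kmt2d 79.3%, and Setd1a and Setd1b 78.0%. Kmt2a and Setd1a matched at 33.0% of positions. Without gaps such a value is low wherever codons were gained or lost, so it is not read as how alike these ends are. The longest identical run within a pair of paralogs in that window was 20 bases for Kmt2a and Kmt2b, 26 for Kmt2c and Kmt2d and 17 for Setd1a and Setd1b. The reads were 75 bases long, and no stretch of 75 bases occurred in the transcripts of more than 1 of the 8 genes, so exact matches of full-length reads do not mix the members. Stretches shared with genes outside the 8, on either strand, made up 50.83% of those of Setd1a (Gm49388). They made up 1.81% in Kmt2a (AC061963.1), 1.19% in Kmt2d (Gm47184) and 1.18% in Kdm6b (Kdm6bos). The share was 0.97% in Kmt2c (Gm42585), 0.64% in Setd1b (Hnrnph1) and 0 in Kmt2b and Kdm6a.

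Length, the summed exon length in the count tables, was large for all 8 genes. Kmt2c had a Length of 20291 bp (59 merged exons, chr5:25271798-25498783, minus strand) and Kmt2d 19887 bp (56 exons, chr15:98831669-98871204, minus). Kmt2a had 16670 bp (37 exons, chr9:44803355-44881296, minus), Setd1b 12068 bp (16 exons, chr5:123142193-123168629, plus) and Kmt2b 9596 bp (36 exons, chr7:30568858-30588726, minus). Kdm6a had 8158 bp (29 exons, chrX:18162575-18279936, plus), Kdm6b 6954 bp (23 exons, chr11:69398508-69413675, minus) and Setd1a 6795 bp (22 exons, chr7:127776670-127800122, plus). Among protein-coding genes these lengths stood between the 84.9th (Setd1a) and the 99.6th percentile (Kmt2c and Kmt2d), where the median gene has 3049 bp. GC content of the longest transcript ran from 42.5% in Kdm6a to 59.6% in Kdm6b.

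Setd1a is the member whose count is least complete. It shares 3523 bp, or 51.85% of its Length, with Gm49388, an annotated gene on the same strand that held 0 counts in all 9 libraries. A read inside the shared stretch fits both genes, and featureCounts drops such reads unless told otherwise. Kdm6b shares 286 bp with its antisense gene Kdm6bos, and Kmt2c shares 274 bp with Gm42585. Strand was not used in counting, so reads in those short stretches cannot be assigned to either gene.

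The libraries held 44341283 (Reintroduction replicate 2) to 113931419 counts (Mock replicate 1), with both mates of a pair counted. The 8 genes took 0.0427 to 0.0515% of the counts in Mock, 0.0751 to 0.1035% in Auxin and 0.0763 to 0.0822% in Reintroduction. All 10 markers of naive pluripotent stem cells had counts, with summed levels of 5702 to 5840 CPM (counts scaled to each library's TMM-adjusted total) in Mock, 7137 to 7654 in Auxin and 5582 to 5684 in Reintroduction. In Auxin against Mock 8 were called higher and 2 lower (Pou5f1 and Dppa5a), against 38.4% and 34.8% of all genes. In Reintroduction against Mock 4 were higher and 4 lower, against 34.7% and 33.4% of all genes. Primitive endoderm markers, all 8 with counts, summed to 6.18 to 7.61 CPM in Mock, 22.8 to 23.7 in Auxin and 14.3 to 16.1 in Reintroduction. Dab2 (means of 3.54, 9.18 and 8.58 CPM) and Gata4 (1.70, 7.02 and 3.57 CPM) carried most of that sum. In Auxin against Mock 7 of the 8 were called higher and Cubn was called lower. In Reintroduction against Mock 3 were higher, 2 lower and 3 not called. Fibroblast markers, 7 of 8 with counts and Twist2 at 0, summed to 17.8 to 20.02, 39.1 to 46.4 and 37.4 to 38.8 CPM. Thy1, which is not limited to fibroblasts, carried that sum (means of 17.9, 41.2 and 37.5 CPM). Of the 3 fibroblast markers tested in Auxin against Mock, Thy1 was called higher, Col1a1 was called lower (log2 fold change -1.47, edgeR adjusted p = 0.000599) and Col1a2 was not called, and Col3a1, Dcn and Lum were at 0 in all Auxin libraries. Early differentiation markers, all 8 with counts, summed to 67.4 to 68.7, 40.1 to 42.2 and 86.1 to 89.7 CPM. Eomes carried that sum (means of 35.4, 25.6 and 66.9 CPM), and in Reintroduction against Mock 1 of the 8 was called higher and 3 lower, with a median log2 fold change of -0.29. The 6 markers of 2-cell-like cells stayed under 1 CPM in every library. The part of these cells in the results below was not tested, and in bulk RNA fewer cells of a type and less RNA per cell cannot be told apart.

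A relation between level and Length also differed between the groups. Over 10376 protein-coding genes, log2 CPM relative to the gene's mean over libraries changed with each doubling of Length by -0.24, -0.16 and -0.17 in Mock replicates 1 to 3. In the Auxin libraries, in the same order, the slopes were 0.14, 0.01 and 0.15, and the Reintroduction slopes were 0.08, 0.09 and 0.09. Auxin replicate 2 thus stood apart from the other Auxin libraries, towards Mock, and Mock replicate 1 stood farthest from Auxin. In the longest decile of these genes, the median log2 fold change of Auxin over Mock was 0.60 and 67.15% rose, against -0.52 and 16.57% in the shortest decile. Each result is therefore given beside the same value for long genes, and after a spline of level on Length was removed from each library. Since the slope separates Mock from the other groups, length-dependent and treatment effects on long genes cannot be told apart in these data.

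**Figure D1:**
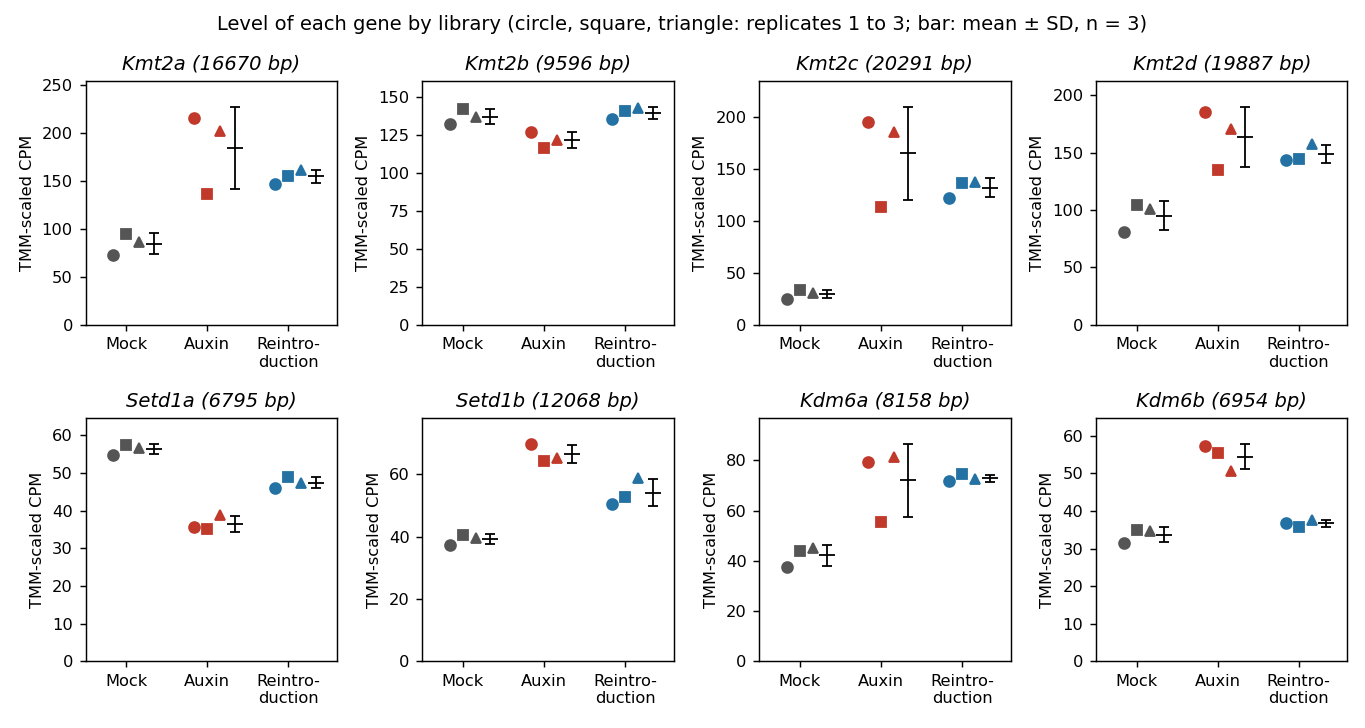
Level of the 8 genes in each library, in TMM-scaled CPM on axes that start at 0, by group. Symbols are replicates 1 to 3 and bars show the mean ± SD (n = 3); Kmt2c lies at 25.1 to 33.1 CPM in Mock and 114 to 196 CPM in Auxin, and Setd1a at 54.8 to 57.5 and 35.1 to 38.8 CPM.

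All 8 genes differed between Auxin and Mock in edgeR's quasi-likelihood test at a Benjamini-Hochberg adjusted p under 0.05, the call used throughout. Kmt2c, Kmt2a, Kmt2d, Setd1b, Kdm6a and Kdm6b rose, and Setd1a and Kmt2b fell. Calls were common: 73.2% of all tested genes were called (38.4% higher and 34.8% lower). Of the 3044 tested genes at least as long as Setd1a, the shortest member, 80.1% were called, 61.7% higher and 18.4% lower. The median log2 fold change was 0.76 over the 8 genes, 0.53 over those long genes and 0.05 over all genes. The share of members that rose, 6 of 8, was thus not far from that of genes of like length. The libraries of Auxin and Mock did not overlap for any of the 8 genes, as for 74.3% of all genes. A change of at least 2-fold was reached by Kmt2c and Kmt2a, and 31.8% of all genes were called with such a change.

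Kmt2c, a catalytic subunit of an enhancer H3K4 monomethylase complex, had the greatest rise of the 8. It stood at 25.1, 33.1 and 30.9 CPM in Mock replicates 1 to 3 and at 196, 114 and 186 CPM in Auxin replicates 1 to 3. The groups did not overlap, and Auxin replicate 2 was the lowest of its group. The log2 fold change was 2.48 (SE 0.18, edgeR adjusted p = 2.66e-07), a 5.56-fold rise that exceeded that of 93.7% of the 3044 long genes. It was 1.68 with the length trend removed (SE 0.086, edgeR adjusted p = 8.77e-09), and without Auxin replicate 2 it was 2.68.

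Kmt2d, the paralog of Kmt2c, was at 80.7, 104 and 101 CPM in Mock and at 186, 135 and 170.2 CPM in Auxin. The groups did not overlap, and the log2 fold change was 0.78 (SE 0.12, edgeR adjusted p = 0.000107). Once the length trend was removed the difference was 0.01 (SE 0.060, edgeR adjusted p = 0.865), so the call was lost. With length and GC trends removed together it was 0.18 (SE 0.072, adjusted p = 0.0375). Kmt2d and Kmt2c have nearly the same Length, so the same correction applied to both.

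Kmt2a, which encodes a methyltransferase of Hox and other developmental promoters, was at 72.8, 94.3 and 86.5 CPM in Mock and at 215, 136 and 202 CPM in Auxin. Every Auxin library was above every Mock library, with replicate 2 again lowest. The log2 fold change was 1.13 (SE 0.15, edgeR adjusted p = 3.65e-05), and 0.42 (SE 0.073, adjusted p = 0.000283) with the length trend removed. Its paralog Kmt2b, needed for H3K4 trimethylation at many bivalent promoters, was at 132, 142 and 137 CPM in Mock and at 127, 116 and 122 CPM in Auxin. The ranges were close but did not overlap, and Kmt2b fell by 0.17 on the log2 scale (SE 0.053, edgeR adjusted p = 0.0122). This small fall was lost with a filter of 1 CPM in 3 libraries (-0.10, adjusted p = 0.107) and in a fit of Mock and Auxin alone (-0.14, adjusted p = 0.0682), and it turned to 0.04 with total counts in place of TMM factors. It was -0.61 once the length trend was removed.

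Setd1a and Setd1b, the catalytic subunits of the complexes that trimethylate H3K4 at active promoters, went in opposite directions. Setd1a was at 54.8, 57.5 and 56.7 CPM in Mock and at 35.5, 35.1 and 38.8 CPM in Auxin, with no overlap, and fell by 0.63 on the log2 scale (SE 0.056, edgeR adjusted p = 1.28e-06). Only 9.2% of the 3044 long genes had a lower fold change. Setd1b was at 37.3, 40.7 and 39.7 CPM in Mock and at 69.7, 64.2 and 65.2 CPM in Auxin, again without overlap. Its log2 fold change was 0.76 (SE 0.067, edgeR adjusted p = 1.21e-06). The removal of the length trend left Setd1a at -0.89 and moved Setd1b to 0.21 (edgeR adjusted p = 0.0165). For Setd1a the trend was taken at its full Length, here and below. Its value at the 3243 bp that Setd1a shares with no other gene was not computed. Setd1b rose without Auxin replicate 2 as well, by 0.78.

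Both H3K27 demethylase genes rose in Auxin. Kdm6a was at 37.6, 44.1 and 45.3 CPM in Mock and at 79.4, 55.4 and 81.5 CPM in Auxin, with a log2 fold change of 0.77 (SE 0.13, edgeR adjusted p = 0.000205). Kdm6b, a gene often induced by signals, was at 31.5, 35.0 and 34.7 CPM in Mock and at 57.3, 55.4 and 50.7 CPM in Auxin, with a log2 fold change of 0.69 (SE 0.064, edgeR adjusted p = 1.68e-06). Neither gene's groups overlapped. After removal of the length trend the values were 0.40 for Kdm6a (adjusted p = 0.0021) and 0.42 for Kdm6b (adjusted p = 9.89e-05). Kdm6b differs from Kdm6a in that its Auxin replicate 2 lay with the other Auxin libraries.

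**Figure D2:**
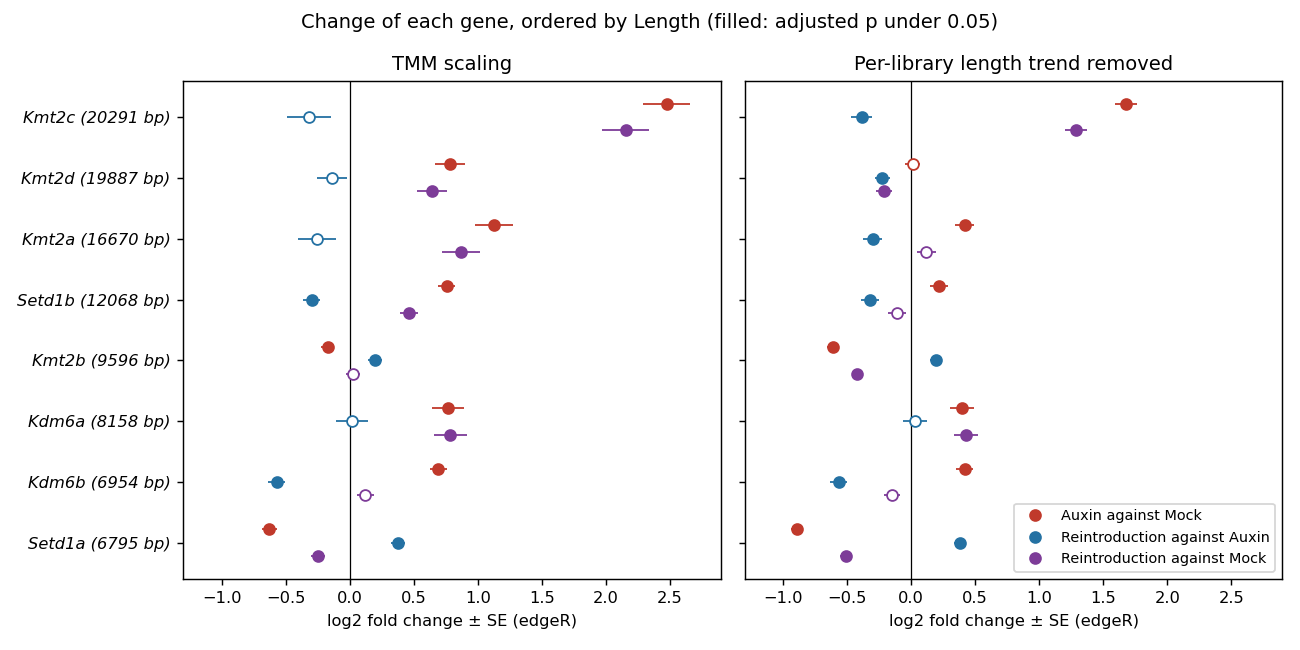
Log2 fold changes ± SE from edgeR for the 8 genes, ordered by Length, in the 3 comparisons; filled points passed an adjusted p of 0.05. On the left counts were scaled by TMM, and on the right the trend of level with Length was also removed from each library, which moves Kmt2d in Auxin against Mock from 0.78 to 0.01 and leaves Kmt2c at 1.68.

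Over the 8 genes, the log2 fold change of Auxin over Mock and Length had a Pearson r of 0.705 and a Spearman rho of 0.857. The points share their libraries and the trend described above, and 8 chosen genes support no test. At the Length of Kmt2c and Kmt2d, the fitted trend alone amounted to 0.77 on the log2 scale in both. At the Length of Setd1a it was 0.27. Measured against the trend, Kmt2c, Kmt2a, Kdm6a, Kdm6b and Setd1b were above it, Kmt2d was on it, and Kmt2b and Setd1a were below it.

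**Figure D3:**
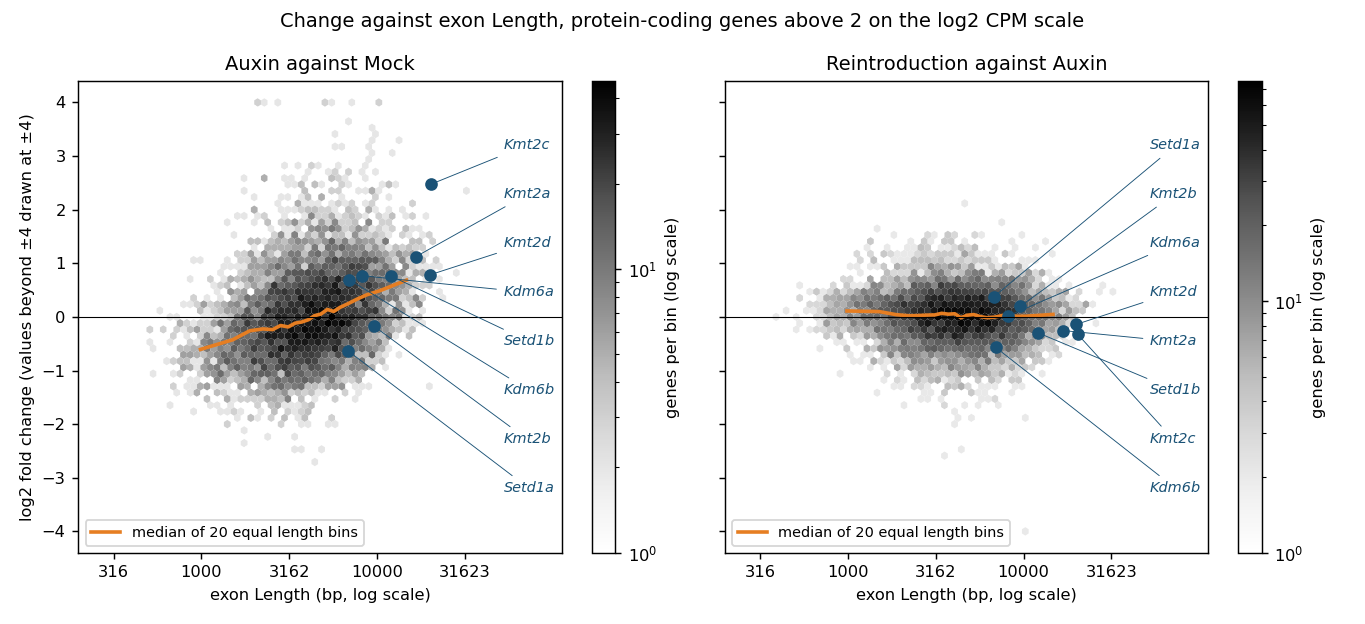
Log2 fold change against exon Length (log axis) for protein-coding genes above 2 on the log2 CPM scale, in Auxin against Mock and in Reintroduction against Auxin. Grey shading counts genes, the orange line joins medians of 20 bins of equal gene number, and blue points are the 8 genes; in Auxin against Mock the line climbs with Length, with Kmt2c at 2.48 far above it and Setd1a at -0.63 below it, while in Reintroduction against Auxin it is nearly flat.

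The washout was compared with Auxin next. The Auxin libraries serve in both this and the previous comparison, so a high value in Auxin enters both. Of the 8 genes, 4 were called between Reintroduction and Auxin: Kdm6b and Setd1b fell, and Setd1a and Kmt2b rose. Over all tested genes 50.9% were called (25.5% higher and 25.5% lower), and 57.8% of the 3044 long genes. The median log2 fold change was -0.20 over the 8 genes, -0.02 over the long genes and 0.003 over all genes. Groups did not overlap for the 4 called genes, as for 58.2% of all genes, and none of the 8 reached 2-fold (11.0% of all genes). Of the long genes, 26.6% were higher and 31.2% lower.

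Kdm6b fell to 36.7, 35.7 and 37.6 CPM in Reintroduction replicates 1 to 3, below all Auxin libraries. The log2 fold change was -0.57 (SE 0.064, edgeR adjusted p = 2.5e-05), and it stayed between -0.65 and -0.54 under all alternatives run. Setd1b fell to 50.6, 52.8 and 58.8 CPM, also below all Auxin libraries, with a log2 fold change of -0.30 (SE 0.067, edgeR adjusted p = 0.00345). Setd1a rose to 46.1, 48.9 and 47.3 CPM, between its Mock and Auxin ranges, with a log2 fold change of 0.38 (SE 0.056, edgeR adjusted p = 0.000194). Kmt2b rose to 135, 141 and 142 CPM, a range that overlaps that of Mock. Its log2 fold change was 0.20 (SE 0.053, edgeR adjusted p = 0.00909). The rise of Kmt2b was lost with total counts (0.12, adjusted p = 0.107) and without Reintroduction replicate 3 (0.17, adjusted p = 0.0513).

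Kmt2a, Kmt2c, Kmt2d and Kdm6a did not pass the test between Reintroduction and Auxin, and in each of them Auxin replicate 2 widened the Auxin range so that the groups overlapped. Kmt2c was at 122, 137 and 138 CPM in Reintroduction (log2 fold change -0.32, SE 0.17, edgeR adjusted p = 0.144). Kmt2a was at 147, 155 and 161 CPM (-0.25, SE 0.15, edgeR adjusted p = 0.178). Without Auxin replicate 2, Kmt2c was at -0.55 (edgeR adjusted p = 7.32e-05), Kmt2a at -0.45 (edgeR adjusted p = 0.000229) and Kmt2d at -0.28 (edgeR adjusted p = 0.0122), so 7 genes were called. The SE of Kmt2a fell from 0.15 to 0.079 there. The share of 50.9% of all genes called belongs to the fit of all 9 libraries. Shares with libraries left out or trends removed are not given here, so the added calls are not read as particular to the members. The same 3 genes were called with the length trend removed, at -0.39, -0.30 and -0.22. With length and GC trends removed Kmt2c was called (-0.32, edgeR adjusted p = 0.016), and Kmt2a (-0.21, edgeR adjusted p = 0.0791) and Kmt2d (-0.13, edgeR adjusted p = 0.141) were not. Scaling on long genes called none of the 3.

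Kmt2d was at 143, 144 and 158 CPM in Reintroduction, with a log2 fold change of -0.14 (SE 0.12, edgeR adjusted p = 0.351). Kdm6a was at 71.7, 74.5 and 72.6 CPM, a narrower spread than in Auxin. Its log2 fold change of 0.02 (SE 0.13, edgeR adjusted p = 0.925) became -0.16 (adjusted p = 0.0551) without Auxin replicate 2. With Mock replicate 1 left out as well, a set chosen after the data were seen, Kdm6a was at -0.14 (edgeR adjusted p = 0.00554) and all 8 genes were called.

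Against Mock, Reintroduction still differed for 6 of the 8 genes. Kmt2c, Kmt2a, Kdm6a, Kmt2d and Setd1b were higher and Setd1a was lower, in a comparison in which 68.1% of all genes (34.7% higher, 33.4% lower) and 77.4% of the long genes were called. Kmt2c alone reached 2-fold, which 22.4% of all genes did. Groups did not overlap for 7 of the 8, all but Kmt2b, and for 75.2% of all genes. Among the long genes 61.9% were higher and 15.5% lower. The median log2 fold change was 0.55 over the 8 genes, 0.45 over the long genes and 0.03 over all genes. Both groups have served above as the other side of a comparison, so these values repeat part of that information.

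Kmt2c remained 2.15 above Mock on the log2 scale (SE 0.18, edgeR adjusted p = 1.51e-06), with every Reintroduction library above every Mock library. Kmt2a was 0.87 above Mock (edgeR adjusted p = 0.00033), Kdm6a 0.79 (edgeR adjusted p = 0.000224), Kmt2d 0.64 (edgeR adjusted p = 0.000592) and Setd1b 0.46 (edgeR adjusted p = 9.72e-05). Setd1a was 0.25 lower than in Mock, at a log2 fold change of -0.25 (edgeR adjusted p = 0.00217), a call that total counts lost (adjusted p = 0.10). Kdm6b (0.12, edgeR adjusted p = 0.111) and Kmt2b (0.03, edgeR adjusted p = 0.678) did not pass the test.

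Removal of the length trend changed the call or the direction of 5 genes here. Kmt2c (1.29) and Kdm6a (0.43) were still called higher in Reintroduction than in Mock. Kmt2d (-0.21), Kmt2b (-0.42) and Setd1a (-0.51) were called lower. Kmt2a (0.12), Setd1b (-0.11) and Kdm6b (-0.15) were not called. Removing length and GC trends together gave other calls for 2 of these. Kmt2d was then at 0.05 and not called (edgeR adjusted p = 0.56), and Kmt2a was called higher at 0.30 (edgeR adjusted p = 0.0158). Setd1b (0.11) and Kdm6b (0.03) were above 0 and not called, whereas Kmt2b (-0.21) and Setd1a (-0.31) were still called lower. The shares of all genes called with these trends removed are not given here.

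Levels can be compared between genes only per length, and as CPM per kilobase of Length Kmt2b was the highest of the 8 in every group. In Mock, Kmt2b stood at 14.3 ± 0.52 CPM per kilobase (SD, n = 3), above Setd1a at 8.29 ± 0.21. Kdm6a (5.19 ± 0.51), Kmt2a (5.07 ± 0.65), Kdm6b (4.85 ± 0.28) and Kmt2d (4.78 ± 0.64) followed, and neighbours among these 4 overlapped over libraries. Setd1b (3.25 ± 0.14) and Kmt2c (1.46 ± 0.20) were separate at the bottom.

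In Auxin the order was Kmt2b (12.7 ± 0.54), Kmt2a (11.1 ± 2.6), Kdm6a (8.84 ± 1.8), Kmt2d (8.23 ± 1.3), Kmt2c (8.14 ± 2.2) and Kdm6b (7.83 ± 0.48), each overlapping with the next, and then Setd1b (5.50 ± 0.24) and Setd1a (5.37 ± 0.30), which overlapped. In Reintroduction, Kmt2b (14.5 ± 0.39) led Kmt2a (9.28 ± 0.42) and Kdm6a (8.94 ± 0.17), which overlapped. They were followed by Kmt2d (7.46 ± 0.40), Setd1a (6.98 ± 0.20), Kmt2c (6.52 ± 0.44), Kdm6b (5.28 ± 0.13) and Setd1b (4.48 ± 0.35), with neighbours separate. The place of Setd1a rests on its counted length: divided by the 3243 bp that it shares with no other gene, its level was 17.4, 11.3 and 14.6 CPM per kilobase in Mock, Auxin and Reintroduction, the first, second and first place in those groups.

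Summed over the 6 methyltransferases, the level was 37.1 ± 2.3 CPM per kilobase in Mock, 51.0 ± 6.9 in Auxin and 49.2 ± 2.0 in Reintroduction (SD, n = 3). Within that sum Kmt2b held 38.5% in Mock, 25.1% in Auxin and 29.5% in Reintroduction, and Setd1a held 22.4%, 10.6% and 14.2%. Kmt2c held 3.93% in Mock, 15.8% in Auxin and 13.2% in Reintroduction. Kmt2a held 13.6%, 21.5% and 18.8%, while Kmt2d and Setd1b varied less, between 12.9% and 16.1% and between 8.76% and 10.9% of the group means. These shares rest on the Length used for Setd1a. With its 3243 unshared bp the sums were 46.2, 56.9 and 56.9 CPM per kilobase, and Setd1a held 37.6%, 19.95% and 25.7% of them. Kmt2b then held 30.9%, 22.5% and 25.5%, below Setd1a in Mock and above it in Auxin, and Kmt2c held 3.16%, 14.1% and 11.4%. All these sums and shares are given without removal of the length trend. In Auxin against Mock that trend was 0.27 on the log2 scale at the Length of Setd1a, 0.44 at Kmt2b and 0.77 at Kmt2c. The median over the long genes was 0.53, so neither the rise of the sum nor the shift of shares is read as particular to the family.

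Ratios between paralogs within a library do not depend on how libraries are scaled against each other. Kmt2c against Kmt2d, with nearly equal Length, had log2 ratios of -1.71, -1.68 and -1.73 in Mock, 0.05, -0.27 and 0.10 in Auxin, and -0.20 ± 0.083 (SD, n = 3) in Reintroduction. Mock was thus apart from both other groups, which overlapped. Kmt2a against Kmt2b went from -1.50 ± 0.14 in Mock to -0.22 ± 0.30 in Auxin and -0.65 ± 0.028 in Reintroduction, with no overlap between groups. Setd1a against Setd1b went from 1.35 ± 0.028 to -0.04 ± 0.11 and 0.64 ± 0.11, also without overlap. With the unshared length of Setd1a these were 2.42, 1.03 and 1.71, so the differences between groups stayed as they were while Setd1a lay above Setd1b in all 3 groups.

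Kdm6a against Kdm6b was at 0.09 ± 0.064 in Mock, 0.15 ± 0.35 in Auxin and 0.76 ± 0.059 in Reintroduction, where the first groups overlapped and Reintroduction lay above both. With 3 libraries against 3, the two-sided exact permutation test cannot go below p = 0.10. Of the 12 differences, 10 reached that value (0.12 after Benjamini-Hochberg adjustment over the 12). The others were Kmt2c to Kmt2d in Reintroduction against Auxin (exact p = 0.40, adjusted p = 0.436) and Kdm6a to Kdm6b in Auxin against Mock (exact p = 0.80). When the length trend was removed, the Auxin minus Mock difference of Kmt2c to Kmt2d was 1.66 against 1.67 before, that of Kmt2a to Kmt2b 1.03 against 1.28, and that of Setd1a to Setd1b -1.10 against -1.39. The last of these takes the trend at the full Length of Setd1a, and its unshared length was not tried there.

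**Figure D4:**
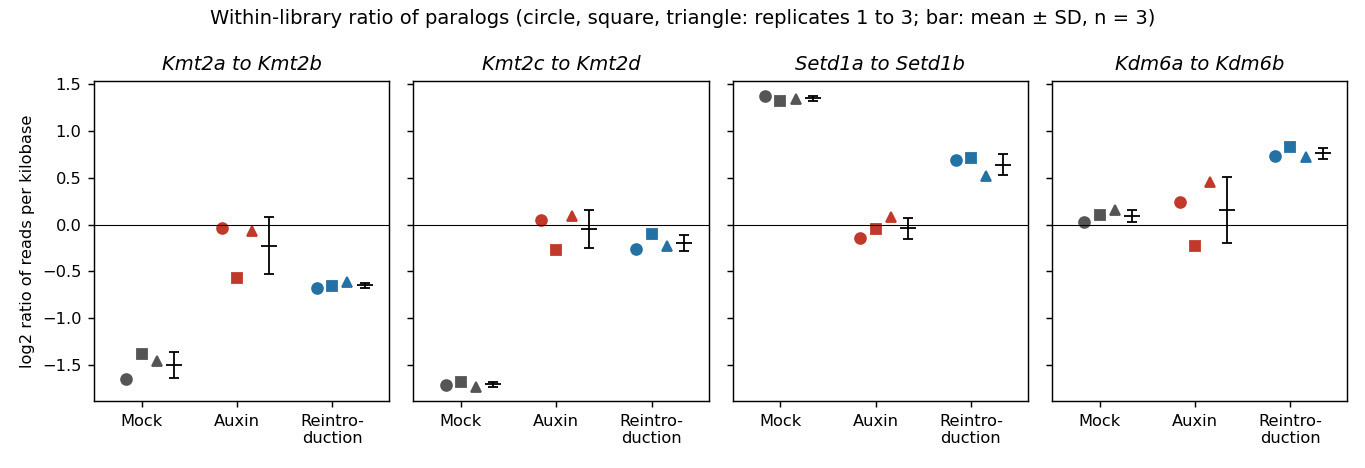
Log2 ratio of reads per kilobase between paralogs within each library, by group; symbols are replicates 1 to 3 and bars show the mean ± SD (n = 3). Kmt2c to Kmt2d moves from near -1.7 in Mock to near 0 in Auxin, and Setd1a to Setd1b from 1.35 to -0.04.

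The COMPASS enzymes work with a shared core of WDR5, RBBP5, ASH2L and DPY30, and the genes of this core divided. In Auxin against Mock, Dpy30 (log2 fold change -1.39, SE 0.090) and Wdr5 (-0.88, SE 0.061) fell, and Rbbp5 (0.54, SE 0.047) and Ash2l (0.14, SE 0.054, edgeR adjusted p = 0.0372) rose. The call of Ash2l was lost without Auxin replicate 2 (0.08, edgeR adjusted p = 0.0805), without any 1 of the Mock libraries (0.12 to 0.13, edgeR adjusted p = 0.0834 to 0.127) and with DESeq2's test (0.11, adjusted p = 0.121). Dpy30 stood at 135, 121 and 123 CPM in Mock and at 45.4, 56.2 and 43.1 CPM in Auxin. At 974 bp it is the shortest of the core genes, and with the length trend removed its fall was 0.93 in size (log2 fold change -0.93). Ash2l, the longest at 8969 bp, was then at -0.27 and called lower. In Reintroduction against Auxin all 4 went the other way: Dpy30 (0.59) and Wdr5 (0.46) rose, and Rbbp5 (-0.48) and Ash2l (-0.34) fell. Of all genes, 73.2% were called in Auxin against Mock and 50.9% in Reintroduction against Auxin. The Auxin libraries serve in both comparisons, so opposite directions are partly built in. The share of all genes that turned back is not given here.

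Among subunits of single complexes, 10 of 11 genes were tested (Pagr1a was too low) and 2 rose, 5 fell and 3 were not called in Auxin against Mock. Of all genes, 38.4% were called higher and 34.8% lower there. Men1, which encodes menin, a partner of KMT2A and KMT2B, fell by 1.19 on the log2 scale (SE 0.070). Hcfc2, a homolog of the host cell factor found in COMPASS complexes, rose by 1.36 (SE 0.083). Ncoa6, a subunit of the KMT2C and KMT2D complexes, rose by 1.05 (SE 0.065) and stood at 55.2, 60.2 and 58.5 CPM in Mock and at 129, 110.0 and 121 CPM in Auxin. With the length trend removed these were -1.12, 1.21 and 0.60, and all 3 were called. In Reintroduction against Auxin, 6 of the 10 rose and 2 fell, with Men1 at 0.66, Hcfc2 at -0.55 and Ncoa6 at -0.26. In that comparison 25.5% of all genes were higher and 25.5% lower.

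The KDM1 and KDM5 enzymes remove H3K4 methylation. Of their 5 tested genes, Kdm5a rose (log2 fold change 0.40, SE 0.12), Kdm1b (-0.35, SE 0.073), Kdm5c (-0.25, SE 0.054) and Kdm5b (-0.20, SE 0.050) fell, and Kdm1a (-0.08, edgeR adjusted p = 0.19) was not called in Auxin against Mock. Among all genes 38.4% were higher and 34.8% lower in that comparison. With the length trend removed all 5 were called lower, with a median of -0.42, Kdm5a among them at -0.24 (14158 bp). The median over all genes was then 0.16, and the share of all genes called lower in that setting is not given here. Kdm5d was too low to be tested.

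The H3K27 acetyltransferase genes Crebbp and Ep300, whose products place acetyl groups on the residue that PRC2 methylates, both rose in Auxin against Mock. Crebbp stood at 37.2, 37.4 and 37.7 CPM in Mock and at 86.4, 68.9 and 86.6 CPM in Auxin (log2 fold change 1.11, SE 0.082). Ep300 had a log2 fold change of 0.58 (SE 0.11). They are long genes (13540 and 14273 bp), and with the length trend removed Crebbp was at 0.50 and called, whereas Ep300 was at -0.05 and not called.

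Other SET proteins linked to H3K4 had 4 of 6 genes higher and none lower in Auxin against Mock, where 38.4% of all genes and 61.7% of long genes were higher. With the length trend removed 4 were higher and 2 lower, namely Setd5 (-0.59, edgeR adjusted p = 1.3e-05) and Smyd3 (-0.28, edgeR adjusted p = 0.0144), at 0.13 each before. The median over all genes was then 0.161, and the share of all genes called in that setting is not given here. Setd7, an H3K4 monomethyltransferase with many other substrates, stood at 7.55, 8.54 and 9.60 CPM in Mock and at 63.6, 50.0 and 62.2 CPM in Auxin, a log2 fold change of 2.78 (SE 0.11). Kmt2e, a family member without known methyltransferase activity, had 1.48 (SE 0.17), and Prdm9, the meiotic methyltransferase of recombination sites, 1.08 (SE 0.20) at 0.811 to 2.59 CPM in these libraries. With the length trend removed Setd7, Kmt2e and Prdm9 were at 2.28, 0.99 and 1.07, and all were called. In Reintroduction against Auxin only Setd7 of these 3 passed the test (-0.29, edgeR adjusted p = 0.0313). Of the 6 genes, 2 were called there, where 50.9% of all genes were called, and 4 without Auxin replicate 2. The share of all genes called without that library is not given here.

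Of the PRC2 core genes, Eed fell by 0.77 on the log2 scale (SE 0.046), Ezh1 rose by 0.36 (SE 0.050), and Ezh2 (-0.11, edgeR adjusted p = 0.10) and Suz12 were not called in Auxin against Mock. With the length trend removed 0 of the 4 were called higher and 2 lower (median -0.185), so the rise of Ezh1 lost its call. Removing length and GC trends together gave 1 higher and 3 lower. The medians over all genes were 0.161 and 0.166 in these settings. Their shares of all genes called are not given here. The degron acts on the Suz12 protein, so its mRNA does not check the depletion. Over the 31 related genes that were tested, 12 rose, 11 fell and 8 were not called, against 38.4% and 34.8% of all genes.

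**Figure D5:**
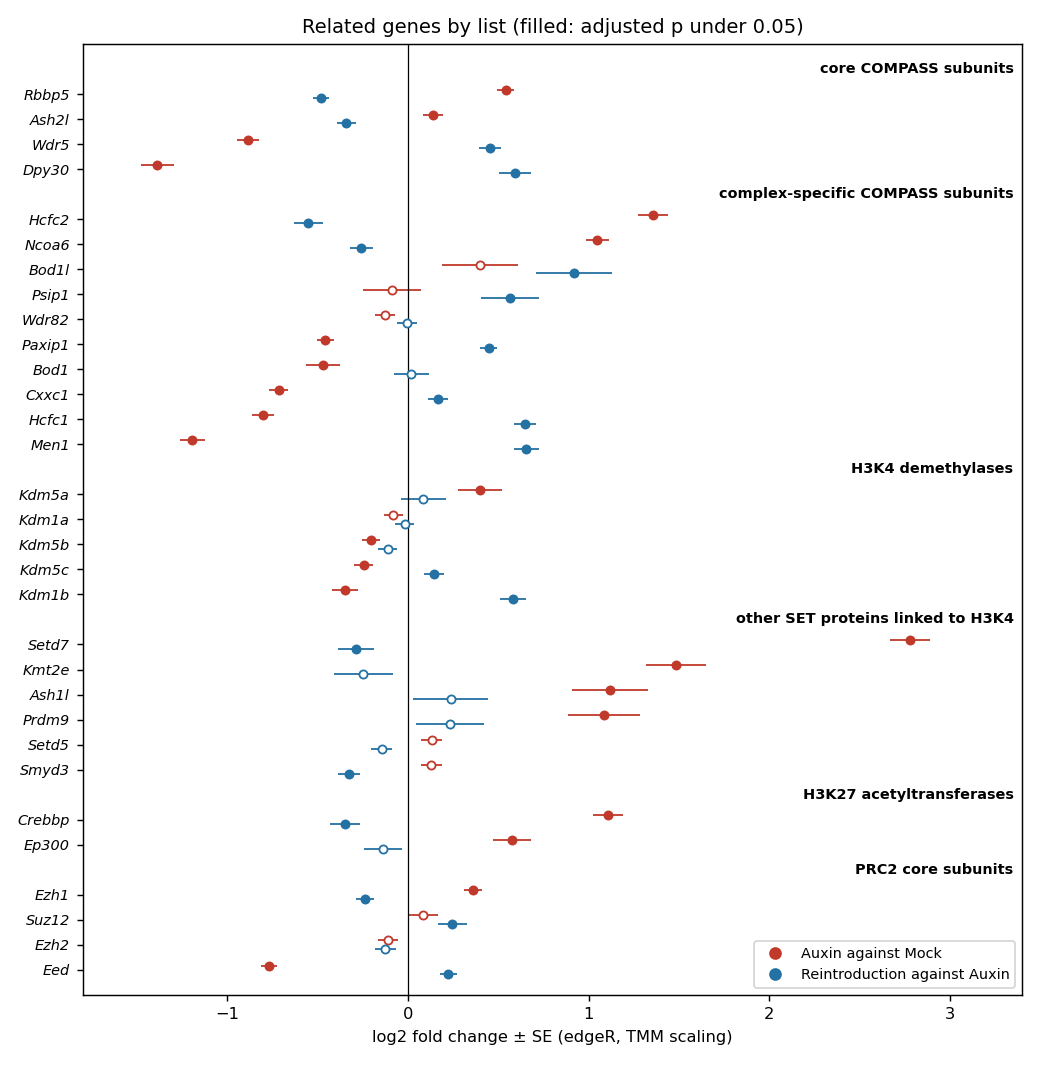
Log2 fold changes ± SE from edgeR for the related genes, by list, in Auxin against Mock (red) and Reintroduction against Auxin (blue); filled points passed an adjusted p of 0.05. Setd7 lies farthest right at 2.78 and Dpy30 farthest left at -1.39 in Auxin against Mock.

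For each member, the genes whose log2 CPM ran most alike over the 9 libraries were listed among 15180 genes that averaged 1 CPM or more. All points share libraries and groups, so these Pearson r values describe and are not tested. Kmt2c ran with Fryl (r = 0.999, 15192 bp) and Ccdc50-ps, Kmt2a with Gm12097 (r = 0.998) and Arl5b, and Kmt2d with Kat6a (r = 0.995) and Kmt2a itself (r = 0.992). Kdm6a ran with Rictor (r = 0.999, 9311 bp) and Ppp1r9a, and Setd1b with Med12 (r = 0.998) and Spen. Setd1a ran with Thbs3 (r = 0.994) and Ptcd3, Kmt2b with Dhx33 (r = 0.992) and Utp20, and Kdm6b with Ap3b1 (r = 0.991) and Zfp623. An r above 0.95 was reached by 1380 genes for Kmt2c (median Length 6156 bp), by 700 for Setd1a (3185 bp) and by 45 for Kmt2b. Among the members, Kmt2a and Kmt2c had r = 0.980, and Setd1a and Setd1b had r = -0.928.

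Promoters are shown for the gene that rose most and for the matched gene with the fewest CpGs, since some KMT2 and SETD1 complexes are themselves known to be drawn to CpG-rich promoters. RefSeq promoters (GRCm38.p6) were matched for 5 of the 8 genes: Kmt2a, Kmt2c, Kmt2d, Setd1a and Kdm6a. Each sequence gives the 250 bases before RefSeq's start of the gene, on the gene's strand, 5′ to 3′, with CpG in capitals: Kmt2c at chr5:25498784-25499033 (minus) and Kdm6a at chrX:18162325-18162574 (plus).
Kmt2c: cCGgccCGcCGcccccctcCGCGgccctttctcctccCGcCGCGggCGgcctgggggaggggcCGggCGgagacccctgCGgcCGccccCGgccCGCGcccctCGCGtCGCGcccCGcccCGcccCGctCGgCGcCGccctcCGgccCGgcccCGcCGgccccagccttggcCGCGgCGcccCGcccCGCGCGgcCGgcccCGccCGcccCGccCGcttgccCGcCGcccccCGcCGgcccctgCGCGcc
Kdm6a: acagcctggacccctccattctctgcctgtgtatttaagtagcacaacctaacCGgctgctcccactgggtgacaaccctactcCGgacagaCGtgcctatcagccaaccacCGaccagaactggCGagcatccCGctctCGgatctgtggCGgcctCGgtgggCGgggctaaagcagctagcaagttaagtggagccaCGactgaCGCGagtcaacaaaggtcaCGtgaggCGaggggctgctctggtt

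The Kmt2c promoter held 48 CpGs, more than 99.8% of 32851 promoters of the same length, of which the median held 6. RefSeq's start need not be that of the count tables: the window of Setd1a (chr7:127777139-127777388) lies wholly inside the gene as counted, that of Kmt2a overlaps the counted gene by 7 bases, and the other 3 lie outside. In these windows Kmt2a held 29 CpGs, Kmt2d 26, Setd1a 25 and Kdm6a 15, and 72.7% of promoters held fewer than Kdm6a. The motif GGGCGG, searched on both strands, had 12 matches in Kmt2c, 4 each in Kmt2a and Kmt2d, 1 in Kdm6a and 0 in Setd1a, and 32.7% of all promoters held it. TATAAA (12.4% of promoters), CCAAT (33.8%) and CCGGAAGT (2.9%) had 0 matches in all 5. These are matches of letters in a window of 250 bases, and binding and methylation at these promoters were not analysed here.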

How the data were processed

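RNA from 9 libraries (3 per group) was analysed. The deposited tables hold unnormalized counts of reads for each gene, made with featureCounts 2.0.6 over exons in paired-end mode on an mm10 annotation, without a strand option, per the file headers. Trim Galore 0.6.10, FastQC 0.12.1, Bowtie2 2.5.3 and SAMtools 1.20 are named in the submitters' processing notes, without their roles. Mates were counted separately: in all 9 libraries more genes had an even count between 2 and 10 than an odd count between 1 and 9 (4035 against 2963 in Auxin replicate 1). Symbols were matched for 48058 of 48440 genes. GENCODE M21, used for sequence and exons, gave the same Length for 85.0% of genes. Kmt2d and Kdm6a differ there, and the deposited Length is used.

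Genes passing filterByExpr (20838) entered 1 edgeR quasi-likelihood fit of all 9 libraries with TMM factors and group as the only term (R 4.3.3, edgeR 4.0.16, limma 3.58.1). The common biological coefficient of variation was 9.15%. P-values are two-sided and Benjamini-Hochberg adjusted over all genes tested. The length trend was a natural spline (5 df) of each library's log2 level on log2 Length, fitted robustly and entered as an offset. On simulated counts with 200 genes changed 2-fold, 95.5% were recovered in Auxin against Mock, and 5.9% of calls were false. A simulated length trend in Mock gave 5295 calls in that comparison, and 0 with the offset. That trend was linear in log2 Length and equal in all Mock libraries, a form that the spline contains. Far fewer genes were changed in the simulated counts than the 73.2% called in the data. Both simulations therefore check the code and do not give the error rate of the calls here. Replicate libraries differed by more than sampling noise (chi-square per degree of freedom from 4.47 to 78.93), so none was merged. The labels do not say how replicate cultures were separated, so p-values measure the spread between these samples.

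The members, the related lists and the tests were chosen with earlier results of these data known. All members are named, with every gene of the core COMPASS subunits, H3K4 demethylases and H3K27 acetyltransferases. From each other related list the 3 tested genes with the smallest p-value in Auxin against Mock are named, and for each member the 2 genes with the highest correlation over libraries. Suz12, Kdm5d and Pagr1a are added as the tagged and the untested genes. Alternatives were DESeq2 1.42.0 size factors and Wald test, total counts, TMM from long genes, removal of length or of length and GC trends, other filters, counts halved, a fit of 2 groups, a replicate block, a 2-fold requirement and leaving out each library.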

Additional observations from a re-analysis of the deposited data

How the results depend on the processing

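Without each library in turn, 8 members were called in Auxin against Mock, 6 in Reintroduction against Mock and 3 to 7 in Reintroduction against Auxin. Requiring a 2-fold change as well left 2, 1 and 0 of these. In Reintroduction against Auxin 7 members were called with the length trend removed, and 8 without Auxin replicate 2 and Mock replicate 1 together, a choice made after seeing the data. The shares of all genes called under these settings are not given here. The lower count of 3 came without Reintroduction replicate 3, where Kmt2b lost its call. Against a median log2 fold change of all genes of 0.05 in Auxin against Mock, total counts gave 0.26, the length trend removed 0.161 and scaling on long genes -0.38, so directions of small changes depend on the scaling. Kmt2b in Auxin against Mock turned to 0.0386 with total counts. Kdm6a in Reintroduction against Auxin turned to -0.065 with total counts, -0.031 with length and GC trends removed, -0.036 with a filter of 1 CPM, -0.0162 with counts halved, -0.16 without Auxin replicate 2 (-0.16 to 0.114 without each library in turn) and -0.14 without that and Mock replicate 1. Kmt2b in Reintroduction against Mock turned to -0.41 with scaling on long genes, -0.42 with the length trend removed, -0.21 with length and GC trends removed, -0.025 without Mock replicate 1, -0.011 without Reintroduction replicate 3 (-0.025 to 0.0284 without each library) and -0.0032 without Auxin replicate 2 and Mock replicate 1. In the same comparison Kdm6b turned to -0.31 with scaling on long genes and -0.15 with the length trend removed, which also turned Kmt2d to -0.21 and Setd1b to -0.11. The Auxin minus Mock difference of the Kdm6a to Kdm6b log2 ratio turned from 0.06 to -0.024 with the length trend removed, and ran from -0.0897 to 0.25 without each library. Beyond the construction of each alternative, the cause was not tested. Over all alternatives, the log2 fold change of Auxin over Mock ran from 1.68 to 2.69 for Kmt2c, 0.42 to 1.34 for Kmt2a, 0.01 to 0.99 for Kmt2d, 0.21 to 0.97 for Setd1b, 0.29 to 0.98 for Kdm6a, 0.27 to 0.90 for Kdm6b and -1.06 to -0.42 for Setd1a. Correlations of same-numbered libraries' deviations from their group means ran from -0.546 to 0.45. The highest of all, 0.652, was between Mock replicate 1 and Auxin replicate 2, which stood apart in their length slopes. With 3 libraries per mean such deviations cannot show whether cultures were paired. With a replicate block, 8, 4 and 6 members were called, as without it, and 14808, 9829 and 13639 genes in all. Under the block Ash2l lost its call in Auxin against Mock (0.14, adjusted p = 0.0778), which left 3 of 4 core COMPASS subunits called.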

Other observations

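The KDM6 family has a Y-linked member, Uty, and the H3K4 demethylases have Kdm5d. Uty held 0 to 2 counts per library and Kdm5d 0 to 3. The Y-linked genes Ddx3y (0 to 1 counts) and Eif2s3y (0 counts in all 9 libraries) were looked up after these values were seen. The count tables list 1570 genes on this chromosome, which together held 10598 to 47139 counts per library. J1 is described as a line from a male embryo, whereas these named Y-linked genes held counts near 0 in these libraries. The cause was not tested. Kdm6a lies on the X chromosome, and its levels are given here without knowing how many X chromosomes the cells carry.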
